A study of Mus musculus with 6 samples.

Results

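A set of 10 genes of the haematopoietic niche was followed in cultured bone marrow stromal cells with and without a feed of apoptotic thymocytes. They were taken by symbol from the count table and were the secreted or surface factors Cxcl12, Kitl, Il7, Csf1, Vcam1 and Ptn, the receptor gene Lepr and the transcription factor genes Ebf1, Ebf3 and Foxc1. All 10 were found among the 53735 features of the table, and all 10 had enough counts to be tested. The cells were wild-type mouse cells sorted for CD51 and against CD31, CD45 and lineage markers, expanded in ascorbate-free medium at 2% oxygen and used at passage 2 or 3. The fed group had 3 libraries, from wells given 5000000 dye-labelled apoptotic thymocytes and kept for 24 h at 5% oxygen, of which only label-positive cells were collected. The control group had 3 libraries from sorted cells of wells without thymocytes, and the labels give neither its oxygen over those 24 h nor the strain, age or sex of the mice. The groups thus differ both in feeding and in the selection of label-positive cells, and these cannot be told apart here. Rose and fell below compare fed with control libraries and do not separate a response from that selection. Nothing in the labels ties a library to its own culture or animal, so the p-values measure the spread between these libraries, which may be technical.

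In the marrow, perivascular stromal cells that carry the leptin receptor and large amounts of CXCL12 feed the blood-forming cells around them. CXCL12 holds stem cells and B-cell precursors in place through the receptor CXCR4, the KIT ligand encoded by Kitl maintains stem cells, interleukin 7 drives B-cell development, and CSF1 sustains macrophages and osteoclasts. VCAM1 anchors blood cells that carry the integrin alpha4beta1. EBF1, EBF3 and FOXC1 are transcription factors that stromal cells need to keep this supporting role.

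Library totals ran from 19069074 to 22410047 counts. Control replicates 1 and 3 differed more from each other than any other 2 libraries of a group did, with a chi-square of 6.14 per degree of freedom against 2.65 to 4.23 for the other pairs. The 12 markers of mesenchymal stromal cells were all tested and summed to 35296 to 36381 CPM (counts scaled to a common library size of 1e6) in control and 31323 to 32992 CPM in fed libraries, led by the collagen genes Col1a1 and Col1a2. Markers of other cells were scarce. The 20 thymocyte markers summed to 12.6 to 13.6 CPM in control and 11.0 to 12.9 in fed libraries. Most of this was Trac, which fell from 12.2 to 9.91 CPM on average, while 5 of the 20 (Cd3g, Cd2, Cd5, Rag2 and Ptcra) had no count and 19 averaged under 1 CPM. Apart from Trac, 5 of the scarce markers had more counts in every fed than in any control library. By CPM, fed lay wholly above control for 25.1% of all genes tested. Rag1 had 0, 2 and 1 counts in control and 7, 6 and 12 in fed libraries, and Ptprc 0, 1 and 0 against 5, 2 and 3. Dntt, Cd8b1 and Cd8a had no count in control and 5, 1 and 3, 3, 2 and 2, and 1, 1 and 3 counts in fed libraries. Others tended the other way. Lck had 8, 11 and 15 counts in control and 7, 4 and 12 in fed libraries and did not pass. Themis had 1, 1 and 1 against 0, 0 and 1. The part of thymocyte RNA in the results below was not tested. The 14 macrophage markers summed to 14.2 to 15.3 CPM in control and 20.6 to 22.1 in fed libraries, and 10 endothelial markers to at most 8.15, with Cdh5, Emcn, Tie1 and Cldn5 without a count. In bulk RNA, fewer cells making a transcript and less of it per cell cannot be told apart.

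In fed cells the KIT ligand gene Kitl and the transcription factor genes Ebf1 and Ebf3 fell, and the macrophage growth factor gene Csf1 rose. Csf1 increased 1.42-fold. Kitl decreased to 0.75 of its control level, Ebf1 to 0.81 and Ebf3 to 0.80. Cxcl12 stood at 0.73 of control with no overlap between the groups, but its adjusted p of 0.0538 (edgeR) missed the threshold of 0.05. Vcam1, Ptn, Lepr, Foxc1 and Il7 did not pass. In all, 1 of the 10 rose and 3 fell by edgeR's quasi-likelihood test with Benjamini-Hochberg adjustment, where 39.5% of 13092 genes tested were called (20.5% higher and 19.0% lower), so the share of the niche genes called, 40.0%, was near that of all genes. Of the 10 estimates 8 were negative, with a median log2 fold change of -0.19 against -0.0066 over all genes tested, of which 6685 were negative. The groups did not overlap for 5 of the 10 genes, 4 of them lower in fed, against 49.1% of all genes tested (24.0% with fed below and 25.1% with fed above). The 10 genes were chosen with earlier results of these data known, so these counts are a description.

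**Figure D1:**
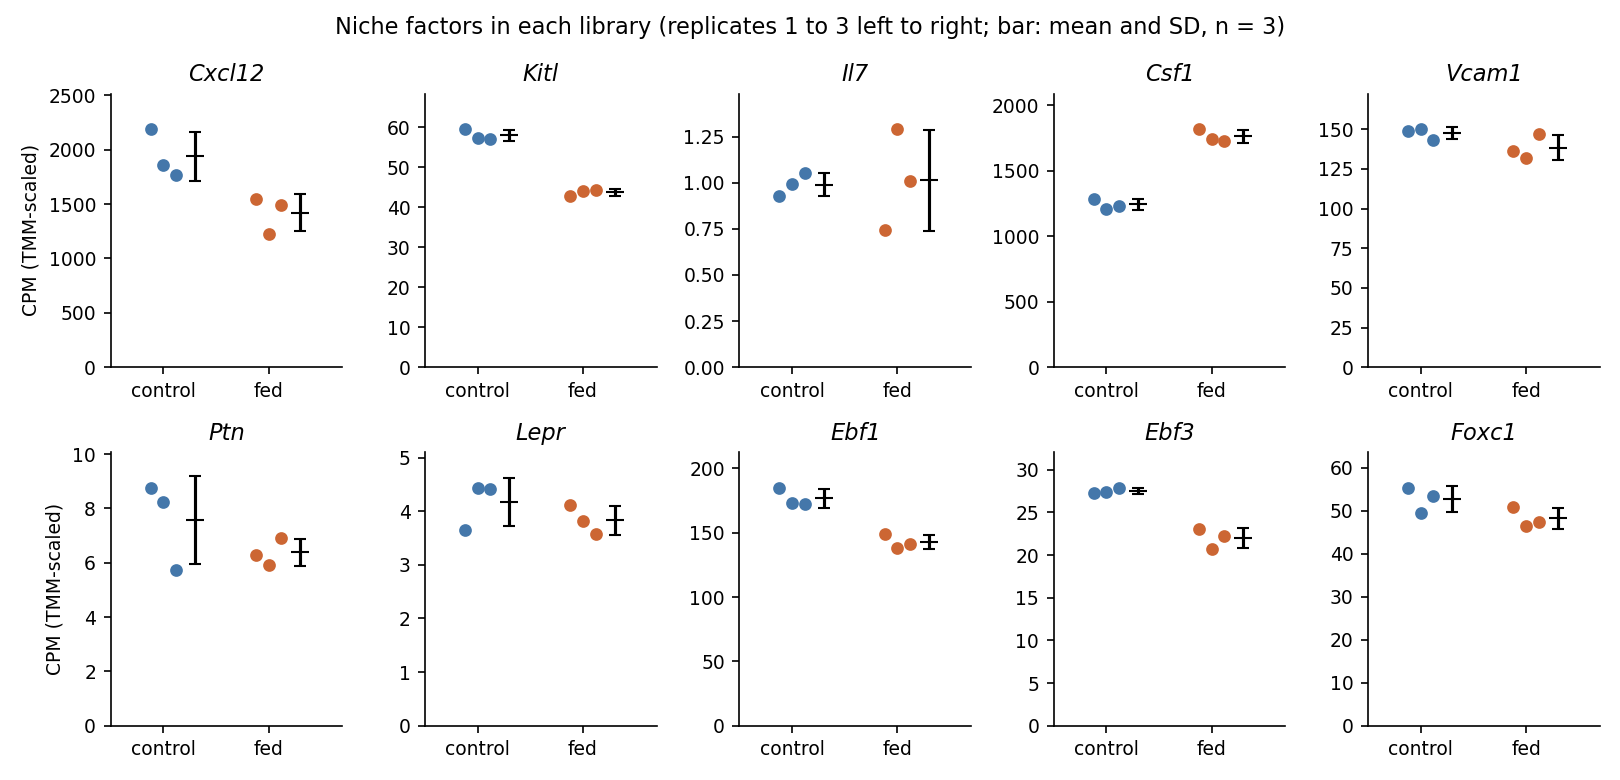
Level of each of the 10 niche factor genes in CPM (vertical axes, linear and starting at 0) in the 3 control (blue) and 3 fed (orange) libraries, with the mean and SD beside them. The fed libraries lie wholly above the controls for Csf1 and wholly below them for Cxcl12, Kitl, Ebf1 and Ebf3, and the groups overlap for Il7, Vcam1, Ptn, Lepr and Foxc1.

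Csf1 and Cxcl12 were by far the most abundant of the 10 per length of transcript, and they are shown by the sequence ahead of their start sites because their estimates had opposite signs. The windows hold the 250 bases upstream of the RefSeq start on GRCm38.p6 and are written 5′ to 3′ on the strand of the gene, with capitals marking a match, on either strand, to the kappaB consensus of the NF-kB factors. Csf1 is read from the minus strand at chr3:107760470-107760719 and Cxcl12 from the plus strand at chr6:117168285-117168534.
Csf1: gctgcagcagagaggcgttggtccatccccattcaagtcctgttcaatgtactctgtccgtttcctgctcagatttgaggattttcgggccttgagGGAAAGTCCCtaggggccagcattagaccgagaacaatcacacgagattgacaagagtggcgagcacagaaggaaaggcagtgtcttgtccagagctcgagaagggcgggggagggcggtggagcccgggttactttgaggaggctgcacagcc
Cxcl12: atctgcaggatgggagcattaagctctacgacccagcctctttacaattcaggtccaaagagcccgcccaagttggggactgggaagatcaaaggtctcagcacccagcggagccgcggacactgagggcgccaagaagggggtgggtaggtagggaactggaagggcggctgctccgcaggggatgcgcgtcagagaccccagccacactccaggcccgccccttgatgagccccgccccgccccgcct
The Csf1 window held 1 kappaB match, GGAAAGTCCC, at positions -154 to -145 relative to the start, and 56.4% G and C. The Cxcl12 window held no match to any motif searched and had 64.4% G and C, against a median of 52.4% over 32851 windows of all genes. RefSeq windows were found for 8 of the 10 genes (not Il7 and Vcam1), 10 windows in all. On both strands, a search was made for kappaB, the palindrome of EBF factors, ACGTG as the core bound by hypoxia-inducible factors, TTCNNNGAA for STAT factors and TGANTCA for AP-1. Of all windows, 7.25% held kappaB, 0.779% the EBF motif, 16.6% ACGTG, 7.02% the STAT motif and 6.75% the AP-1 motif. Beside Csf1, kappaB matched in the windows of Kitl (GGAAGATCCC) and Foxc1 (GGGGCTCCCC), ACGTG matched in 1 of 2 windows of Ebf1, and no 2 of these matches overlapped. A match describes the letters and is not evidence that a factor binds there.

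Among the secreted factors, Csf1 (chromosome 3, 107741048 to 107760469, GRCm38) encodes the growth factor that macrophages and osteoclast precursors depend on. It had 1287, 1208 and 1231 CPM in control replicates 1 to 3 and 1816, 1743 and 1726 CPM in fed replicates 1 to 3. Every fed library lay above every control library, and the gap between the groups was several times the spread within either. The log2 fold change was 0.50 ± 0.039 (SE), with an adjusted p of 5.51e-09 (edgeR), and it lay between 0.48 and 0.54 under the 14 alternative settings. Il34, the other ligand of the CSF1 receptor, was scarce, with 5.57 ± 0.299 CPM in control and 6.94 ± 0.625 in fed cells (SD, n = 3). It rose by the main test (adjusted p = 0.0297, edgeR), a call lost by DESeq2 (0.141). It was also lost when control replicate 2 (0.103) or either of fed replicates 2 (0.124) and 3 (0.0846) was left out. The receptor gene Csf1r had 5.78 ± 0.292 and 5.40 ± 0.778 CPM and did not pass (adjusted p = 0.596, edgeR). Of the 14 macrophage markers 10 averaged under 1 CPM. Of the 4 tested, 2 rose, against 20.5% of all genes tested, and 2, Csf1r and Cd68, did not pass. Lyz2 rose from 3.32 to 7.47 CPM on average and Cd14 from 4.28 to 5.36 (adjusted p = 0.0490, edgeR). In each fit that left out a library, only 1 macrophage marker was called higher. C1qa, C1qb, C1qc and Adgre1 had no count in control and counts in every fed library, with 10, 6 and 9 for C1qc. Ptprc, which is on this list too, had 0, 1 and 0 counts in control and 5, 2 and 3 in fed libraries. By CPM, fed lay wholly above control for 25.1% of all genes tested. For Mrc1, Fcgr3, Itgam, Aif1 and Cx3cr1 the groups overlapped. The part of these markers in the Csf1 result was not tested.

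Kitl (chromosome 10, 100015630 to 100100416) encodes the KIT ligand, also called stem cell factor. It was even among replicates, with 59.5, 57.4 and 57.0 CPM in the control libraries and 42.8, 44.1 and 44.3 CPM in the fed libraries. The highest fed library was well below the lowest control. Its log2 fold change was -0.41 ± 0.045 (SE, adjusted p = 4.94e-07 by edgeR), and the alternatives ranged from -0.42 to -0.37. Kit, which encodes the receptor, was near 3 CPM in both groups (2.98 ± 0.369 and 3.04 ± 0.120) and did not pass. The counts do not separate the splice forms that give membrane-bound or shed KIT ligand, since GENCODE lists 4 coding transcripts for Kitl and counts were made per gene. The same holds for Cxcl12, with 3 coding transcripts, and Csf1, with 6.

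Cxcl12 (chromosome 6, 117168535 to 117181367) encodes the chemokine that keeps stem and progenitor cells in the marrow. It had the largest spread among replicates of the abundant members. The control libraries had 2188, 1859 and 1764 CPM and the fed libraries 1542, 1226 and 1493 CPM. All fed values lay below all control values, and fed replicate 2 was the lowest. The log2 fold change was -0.45 ± 0.13 (SE), larger in size than that of Kitl but with the larger standard error. The threshold was passed without robust estimation (adjusted p = 0.000441, edgeR), by limma-voom (0.000379) and by DESeq2 (0.00617), and without fed replicate 2 (log2 fold change -0.35, adjusted p = 0.0136, edgeR). Over all 14 alternatives the estimate stayed between -0.51 and -0.35 and the adjusted p between 0.000379 and 0.126.

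The receptors that respond to CXCL12 were unequal in level. Ackr3, an atypical receptor that binds and removes CXCL12, fell from 64.7 ± 1.95 to 59.0 ± 1.54 CPM (adjusted p = 0.0196, edgeR). Its call was lost with library totals only (0.0709) and by DESeq2 (0.109). Leaving out single libraries gave adjusted p-values of 0.0623 (control 1), 0.0843 (control 2), 0.0752 (fed 2) and 0.0717 (fed 3) by edgeR. Cxcr4, the signalling receptor, had 2, 2 and 2 counts in the control and 5, 7 and 4 counts in the fed libraries, too few to test. The protease gene Dpp4, whose product trims CXCL12, had 32, 37 and 24 counts in control and 34, 43 and 24 in fed libraries and did not pass.

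Il7 (chromosome 3, 7569994 to 7613760), the gene of interleukin 7, was the scarcest of the 10, with 20, 21 and 20 counts in control and 15, 28 and 23 in fed libraries. Its fed libraries lay on both sides of the controls. Summed over a group, the counting interval was 0.758 to 1.27 CPM in control and 0.785 to 1.29 in fed cells (exact Poisson, 95%, counting error only), so a change of the size seen in Kitl was not detectable at this depth. Ptn (chromosome 6, 36714929 to 36810220) encodes pleiotrophin, a heparin-binding growth factor. It had 8.76, 8.22 and 5.74 CPM in control and 6.29, 5.93 and 6.92 CPM in fed libraries, with control replicate 3 below all fed libraries. The log2 fold change of -0.25 ± 0.14 did not pass (adjusted p = 0.150, edgeR), and without control replicate 3 it was -0.41 with an adjusted p of 0.00602. Mdk, the gene of the related growth factor midkine, had 24.2 ± 1.55 and 23.3 ± 0.580 CPM and did not pass.

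Of the surface proteins, Vcam1 (chromosome 3, 116109949 to 116129688) had 149, 150 and 143 CPM in control and 136, 132 and 147 CPM in fed libraries. Fed replicate 3 reached into the control range. The log2 fold change was -0.09 ± 0.042 (adjusted p = 0.0839, edgeR), and -0.14 without fed replicate 3, where it passed (0.0187). The integrin gene Itga4, whose product binds VCAM1 on blood cells, had 2, 2 and 2 counts in control and 5, 2 and 5 in fed libraries and was not tested. Lepr (chromosome 4, 101717404 to 101815352) is the leptin receptor gene, by which perivascular stromal cells are marked in the living marrow. In these cultures, whose cells were sorted for CD51, Lepr was low. It had 79, 94 and 84 counts in control and 83, 83 and 81 in fed libraries. Its groups overlapped, at 4.17 ± 0.446 and 3.83 ± 0.273 CPM (adjusted p = 0.507, edgeR). The leptin gene Lep had no count in any library.

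The transcription factor genes Ebf1 and Ebf3 fell side by side. Ebf1 (chromosome 11, 44617317 to 45008091) had 185, 173 and 172 CPM in control and 149, 138 and 141 CPM in fed libraries. Ebf3 (chromosome 7, 137193673 to 137314445) had 27.3, 27.4 and 27.9 CPM in control and 23.0, 20.7 and 22.2 CPM in fed libraries. Both had fed values wholly below control. The log2 fold changes were -0.31 ± 0.041 for Ebf1 (adjusted p = 5.12e-06, edgeR) and -0.32 ± 0.060 for Ebf3 (0.000228), and both calls held under all 14 alternatives. Because Ebf1 is also a gene of B cells, their markers were read beside it: the 10 B-lineage markers summed to at most 0.579 CPM in any library, and Cd79b, Ms4a1, Vpreb3 and Igll1 had no count.

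The remaining EBF paralogs were lower too. Ebf2 went from 20.0 ± 0.338 to 17.5 ± 1.29 CPM (adjusted p = 0.0274, edgeR) and Ebf4 from 3.84 ± 0.188 to 2.67 ± 0.183 CPM (0.00710). All 4 EBF genes were thus called lower by the main test and 2 by DESeq2, where 19.0% of all genes tested were lower by the main test. The call of Ebf2 was lost with library totals only (0.0606), by DESeq2 (0.156) and by leaving out control 1 (0.0610), control 2 (0.0804) or fed 2 (0.166), and that of Ebf4 by DESeq2 (0.0721). Reads shared between such paralogs could be split by the authors' counting, whose rule for them is not given in the sources used here. Zfp521, a zinc finger partner that binds EBF1, fell from 74.1 ± 2.36 to 57.5 ± 1.93 CPM (adjusted p = 1.25e-06, edgeR). Foxc1 (chromosome 13, 31806633 to 31812476), a forkhead factor needed for CXCL12-rich cells, had 55.4, 49.4 and 53.4 CPM in control and 50.9, 46.5 and 47.3 CPM in fed libraries, which overlapped through control replicate 2. Its log2 fold change of -0.13 ± 0.052 had an adjusted p of 0.0537 (edgeR), which became 0.0234 without control replicate 2, 0.0203 without fed replicate 1 and 0.0474 under a stricter filter on low counts. The relative Foxc2 had 37.5 ± 0.518 and 40.5 ± 2.40 CPM, a log2 fold change of 0.11 that did not pass (0.0968) except with library totals only (0.0370).

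**Figure D2:**
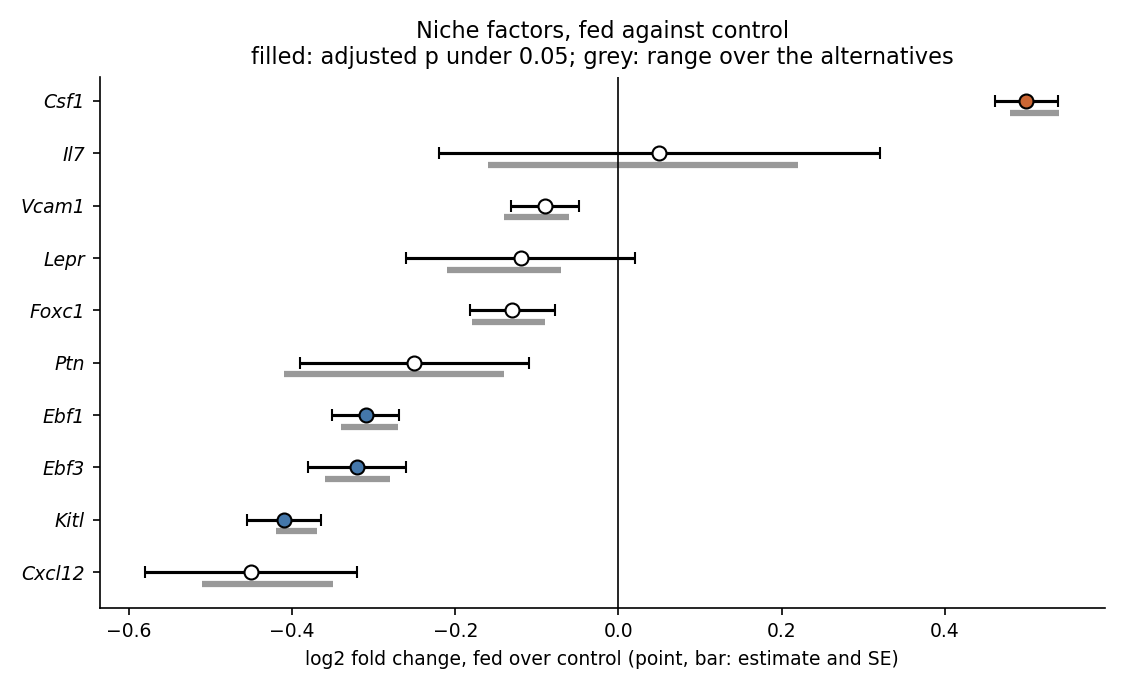
Log2 fold change of fed over control (horizontal axis) for the 10 niche genes, with its standard error as a black bar and the range over the 14 alternatives as a grey bar; filled points passed at an adjusted p under 0.05. Csf1 is the only filled point on the right, at 0.50, and Il7 has an open point at 0.05. Kitl, Ebf3 and Ebf1 are the filled points on the left, and Cxcl12 has the most negative estimate, -0.45, with an open point.

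Per kilobase of exon, which lets genes be set side by side, Cxcl12 and Csf1 were level in control cells, with 237 ± 27.2 and 235 ± 7.75 CPM per kb and ranges that met. They were followed by Ebf1 (18.1 ± 0.768), Vcam1 (16.6 ± 0.426), Kitl (9.81 ± 0.224), Foxc1 (9.03 ± 0.524), Ebf3 (2.98 ± 0.0332), Ptn (2.21 ± 0.468), Lepr (0.592 ± 0.0632) and Il7 (0.175 ± 0.0112), whose ranges did not meet their neighbours'. In fed cells Csf1 came first at 334 ± 9.07 CPM per kb, clear of Cxcl12 at 174 ± 20.8. Vcam1 (15.6 ± 0.867) and Ebf1 (14.6 ± 0.553) then had ranges that met, and Foxc1 (8.25 ± 0.401) stood above Kitl (7.40 ± 0.134).

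Ratios within a library do not depend on how libraries are scaled, and they are given as a description, since the pairs were chosen after the values were seen. The per-length ratio of Csf1 to Cxcl12 was 0.911, 1.01 and 1.08 in the control libraries and 1.82, 2.20 and 1.79 in the fed libraries. The groups were apart, with Csf1 and Cxcl12 near parity in control and Csf1 well ahead in fed cells. The ratio of Kitl to Cxcl12 was 0.0417 ± 0.00367 in control and 0.0431 ± 0.00594 in fed cells, and that of Ebf1 to Ebf3 was 6.07 ± 0.307 and 6.15 ± 0.147, so each of these pairs kept its proportion within the spread of the libraries.

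**Figure D3:**
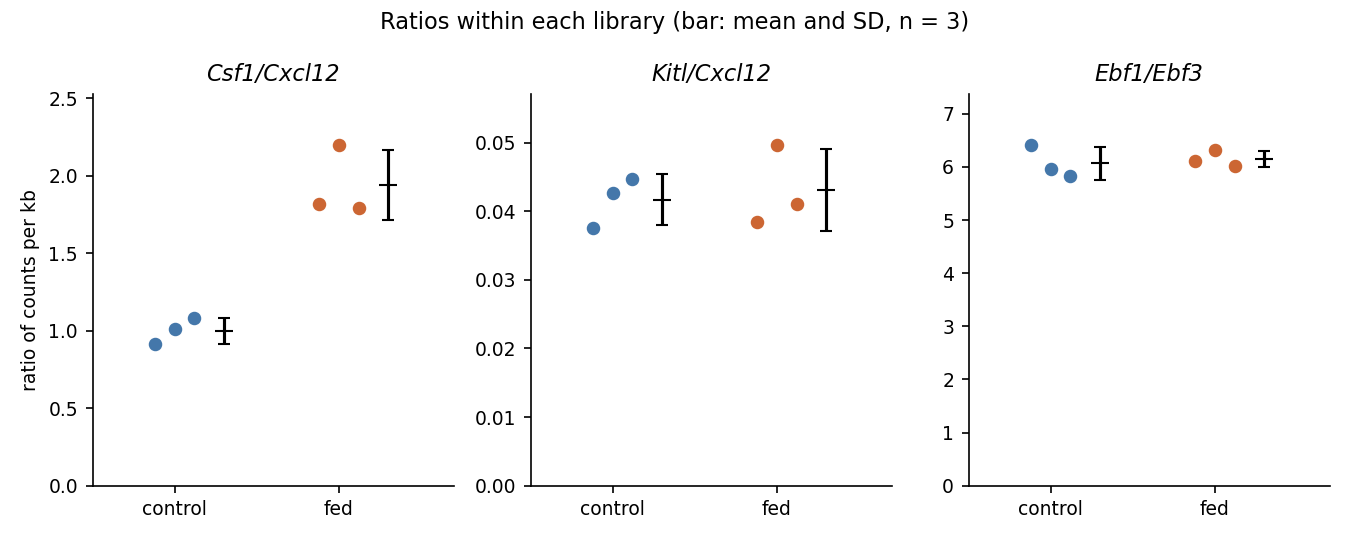
Per-length ratios of 3 gene pairs in each library (vertical axes, linear from 0; control blue, fed orange), with the mean and SD. The ratio of Csf1 to Cxcl12 averages 0.999 in control and 1.94 in fed libraries without overlap, whereas the ratios of Kitl to Cxcl12 and of Ebf1 to Ebf3 overlap between the groups.

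Further niche factors were called about as often as all genes tested. This list and those below were chosen with earlier results of these data known. Their counts and shares describe the listed genes and do not test for an excess or a direction. Of 50 further secreted or surface niche factors 42 were tested, of which 8 rose and 9 fell (40.5% called against 39.5% of all genes, median log2 fold change 0.0045). Fgf2, a growth factor for mesenchymal cells, rose from 49.9, 48.1 and 44.5 to 79.7, 80.8 and 77.7 CPM, Ccl2, which draws monocytes, from 29.0 ± 1.73 to 36.4 ± 1.71, and Grem1, a BMP antagonist, from 26.6 ± 0.625 to 33.9 ± 4.20. Sfrp1, a secreted inhibitor of Wnt signalling, fell from 3977 ± 335 to 2654 ± 81.2 CPM and the neutrophil chemokine gene Cxcl5 from 120 ± 3.68 to 88.0 ± 2.14. Angpt1, the ligand of the TIE2 receptor and a stromal niche factor like Kitl, fell from 36.0 ± 1.86 to 27.8 ± 0.839 CPM (adjusted p = 2.37e-05, edgeR). Jag1, Il6 and Spp1 did not pass, at 27.8 and 28.1, 6.10 and 6.58, and 1893 and 2185 CPM in control and fed cells. For Spp1, which encodes osteopontin, the adjusted p was 0.109 by the main test, but 0.0205 by limma-voom, 0.0213 without robust estimation, 9.74e-06 without a filter on low counts and 0.000794 without fed replicate 3.

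Among receptors, binding partners and signalling genes of the niche proteins, more fell than rose. Of 25 listed, 20 were tested, of which 11 fell and 1 rose (60.0% called, against 39.5% of all genes, of which 19.0% were lower and 20.5% higher; median -0.18). Socs3, a feedback inhibitor of signalling by the leptin receptor and gp130, fell from 176 ± 7.71 to 108 ± 1.29 CPM (adjusted p = 8.32e-11, edgeR), Il6st, which encodes gp130, from 2319 ± 90.7 to 1476 ± 35.9 and the phosphatase gene Ptpn1 from 111 ± 2.97 to 84.3 ± 1.58. Other signalling genes of the list, named after their values were seen, were unequal: Jak2, Stat3 and Stat5a fell, with log2 fold changes of -0.22, -0.25 and -0.33, while Stat5b (-0.04, adjusted p = 0.556, edgeR) and Ptpn11 (0.04, 0.466) did not pass. The receptor genes Lepr, Kit and Csf1r did not pass, and Cxcr4 and Itga4 were not tested, as given above. The single gene higher was Ncl, which encodes nucleolin, a protein reported to bind pleiotrophin, with 401 ± 6.83 and 441 ± 27.5 CPM; its call was lost without fed replicate 1 (adjusted p = 0.0884, edgeR). Il7r had at most 1 count in any library.

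Genes that shape the release of these factors went both ways, with 3 of 8 tested higher and 4 lower (87.5% called against 39.5% of all genes, median -0.06). Membrane proteases able to cut surface proteins fell. Adam17, a sheddase of CSF1 and VCAM1, fell from 116 ± 5.95 to 94.4 ± 1.51 CPM (adjusted p = 1.04e-05, edgeR), Adam10 from 143 ± 2.23 to 124 ± 4.15 and Mmp14 from 713 ± 56.7 to 538 ± 21.5. Timp3, an inhibitor of ADAM17 and of matrix proteases, rose from 1719, 1700 and 1738 to 2700, 2777 and 2634 CPM (1.10e-10). The connexin genes Gja1 and Gjc1, whose channels have been tied to CXCL12 secretion by stroma, rose from 109 ± 3.33 to 125 ± 8.12 and from 18.9 ± 0.596 to 23.1 ± 2.38 CPM.

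Other transcription factors of marrow stroma also split, with 7 of 27 tested higher and 10 lower (63.0% called against 39.5% of all genes, median -0.022). Sp7, of the osteoblast lineage, rose from 54.4, 49.3 and 51.2 to 79.8, 73.3 and 76.3 CPM. Pparg, of the adipocyte lineage, rose 1.41-fold from 35.6 ± 1.26 CPM, and Klf4 rose from 56.8 ± 3.20 to 76.5 ± 2.65. Hif1a, the oxygen-regulated subunit of hypoxia-inducible factor, fell from 477 ± 10.7 to 343 ± 1.39 CPM (adjusted p = 2.62e-09, edgeR) and Cebpb from 38.1 ± 2.54 to 27.7 ± 1.18. The recorded oxygen of the fed wells was 5% against 2% during expansion, and its part in these values was not tested.

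Genes that mark CXCL12-abundant reticular cells in the living marrow, other than the 10, were lower more often than higher. Of 40 listed, 37 were tested, of which 19 fell and 4 rose (62.2% called, median -0.14), against 19.0% lower and 20.5% higher over all genes tested. Lpl, a lipase that these cells make in quantity, fell from 110 ± 9.29 to 53.1 ± 3.26 CPM, Igfbp5 from 48.1 ± 1.97 to 29.8 ± 2.81 and Igfbp4, which encodes an abundant IGF-binding protein, from 5854 ± 9.03 to 4578 ± 261. The genes higher included Pparg, Grem1 and Dpep1, the last with 111 ± 10.2 and 147 ± 13.5 CPM. Another 14 did not pass, among them Cxcl14, Hp, Gas6, Apoe and Adipoq. Adipoq had 2.59 ± 0.305 and 3.53 ± 0.974 CPM (adjusted p = 0.0774, edgeR). Of the 37 estimates, 28 were negative. Angpt1, Grem1, Ackr3, Pparg, Cebpb and others stand in more than one of these lists, so the counts are not separate. Of the 12 general stromal markers, whose summed level was lower in every fed library than in any control, 7 were also called lower and 1 was higher (2 higher under 7 of the alternatives, among them leaving out control replicate 1 or fed replicate 2); their part in the results above was not tested.

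**Figure D4:**
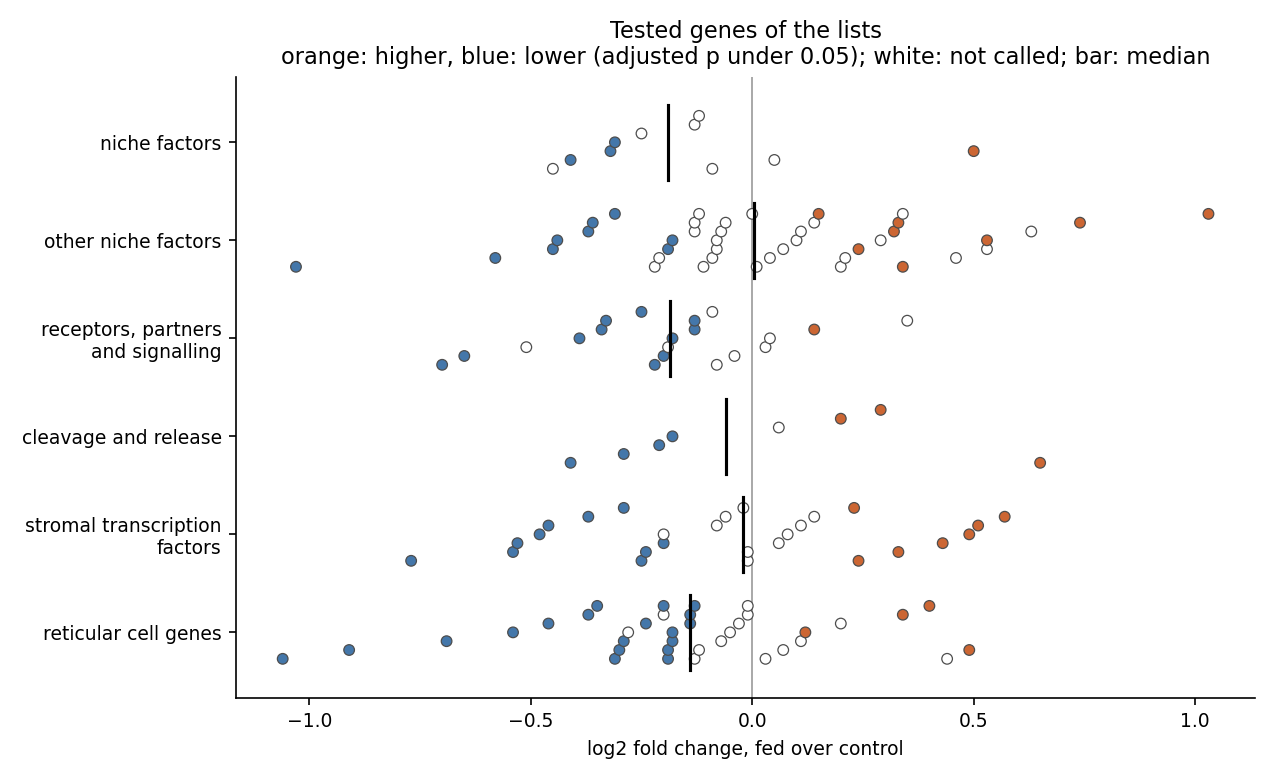
Log2 fold change of fed over control (horizontal axis) for every tested gene of 6 lists; each point is a gene, orange if called higher, blue if called lower and white if not called, and the vertical bar is the median of the list. The receptor and signalling list and the reticular cell list have most of their called genes on the left (11 of 12 and 19 of 23), while the other niche factors are spread on both sides around a median of 0.0045.

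The genes whose levels ran most like those of Cxcl12, Kitl and Csf1 over the 6 libraries were looked up among 8621 other genes of at least 10 CPM, as a description. The nearest to Cxcl12 was Smpdl3a (Pearson r = 0.9999), at 33.1 ± 2.34 CPM in control and 27.5 ± 2.07 in fed cells, followed by Atxn1 and Rnase4 (0.9944 and 0.9940). For Kitl they were Bcam, Ptx3 and Sec24d, and for Csf1 Vrk1, Bmper and Maff, with r from 0.9978 to 0.9994. With only 6 libraries in 2 groups, r above 0.95 was common, reached by 200 genes for Cxcl12, 745 for Kitl and 701 for Csf1.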

How the data were processed

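Polyadenylated RNA of sorted stromal cells was sequenced in 6 libraries, from 200 ng of total RNA per library with a stranded kit, per the labels. The authors deposited unnormalized counts for each gene symbol. Trimmomatic 0.36, Subread 1.6.1 (featureCounts) and STAR 2.6.0c are named with GRCm38 per the submitters' processing notes. The annotation release, strand setting and multi-mapping rule: not given in the sources used here. Hence genes with near-identical copies or an overlapping antisense gene are uncertain (antisense genes overlap Ebf1, Ebf3, Il7 and Vcam1 in GENCODE M21).

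Counts were fitted with edgeR 4.0.16 in R 4.3.3: filterByExpr defaults, TMM scaling, robust quasi-likelihood F-test of 3 fed against 3 control libraries, no replicate block, called at a Benjamini-Hochberg adjusted p under 0.05 over all 13092 genes tested. CPM are counts per TMM-scaled library total times 1e6, with the SD over 3 libraries after ±; SEs of log2 fold changes derive from the F statistic. Lengths and positions are GENCODE M21 (GRCm38), upstream sequences RefSeq (GRCm38.p6). Names that read as dates (27 features, 0.227% of counts) stayed in the totals. The test was run on simulated counts, which gave every gene the same relative spread and changed few genes. They differ from these data in both, so they do not show how the test performs here. Libraries of a group differed by more than sampling noise and were each kept. Alternatives were RLE or library totals, 2 other filters, DESeq2 1.42.0, limma-voom (limma 3.58.1), no robust estimation, the replicate block and each library left out in turn.

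The 10 genes and the gene lists were chosen with earlier results of these data known. Named genes were all 10, the 3 called genes with the smallest adjusted p in each direction of each other list, and a fixed panel of receptors and relatives; the stromal and other marker genes, Lep, and Jak2, Stat3, Stat5a, Stat5b and Ptpn11 fall outside that rule. The B-lineage list had no gene with enough counts to test, and the thymocyte, macrophage and endothelial lists had 2, 4 and 4 tested genes, of which 0, 2 and 0 rose and 1, 0 and 1 fell.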

Additional observations from a re-analysis of the deposited data

How the results depend on the processing

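The calls of Csf1, Kitl, Ebf1 and Ebf3 held under all 14 alternatives, and none of the 10 niche genes or 38 other genes recomputed under them changed sign if called. The number of niche genes called lower was 3 by the main test, 6 with the replicate block, and 3 to 4 with 1 library left out; the genes added were Cxcl12 (adjusted p = 0.0360, edgeR), Vcam1 (0.0348) and Foxc1 (0.0166) under the block. The block uses replicate numbers that the labels do not tie to a shared culture or day: deviations of same-numbered libraries correlated at 0.101, 0.0220 and 0.128, so not every pair passed 0.1, although each library correlated best with a library of its own number except control replicate 2, where fed replicate 1 gave 0.0271. With the block, 2989 genes rose and 2859 fell, and the reticular cell genes called higher went from 4 to 7. Over all genes the calls were 2682 higher and 2493 lower, 3183 and 2029 with library totals only, which moved the median estimate by 0.032, and 2020 and 1710 by DESeq2. With 1 library left out, estimates that had not passed changed sign for Il7 (-0.16 to 0.22), Csf1r (-0.17 to 0.02), Dpp4 (-0.15 to 0.29), Il6 (-0.00 to 0.24), Jag1 (-0.01 to 0.05) and Kit (-0.04 to 0.14). Of 38 other named genes tested, 26 kept both call and sign throughout. The 2 macrophage markers called higher became 1 in each fit that left out a library and 5 with no filter on low counts, where 2 thymocyte markers were also called higher. Depth limits Il7, Lepr and the scarce receptors, which had under 150 counts per library.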
